A study of Caenorhabditis elegans with 11 samples.

Results

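The genes for the proteins of the cytoplasmic ribosome were followed in early embryos of 4 strains of *Caenorhabditis elegans*. Rows of the count table were taken when their gene symbol began with *rpl-* (large subunit), *rps-* (small subunit) or *rla-* (the acidic proteins of the stalk). This rule gave 81 of 46772 rows, all protein-coding, of which 47 were *rpl-*, 31 were *rps-* and 3 were *rla-* symbols. The rule reads symbols only and used no measured value. A mean normalized count above 10 was reached by 80 of the 81 genes, and these were tested. The remaining gene, *rpl-42*, had between 0 and 3 counts in each library and is given no further value.

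The wild-type strain was N2 (Bristol), and the mutant strains carried *cfp-1(tm6369)*, *set-2(bn129)* or *sin-3(tm1276)* in the respective gene. The *tm6369* and *tm1276* alleles are deletions, and all 3 alleles count in the study as null or strong losses of function. Early embryos were released from young adults with hypochlorite and frozen, so each library is a pool of many embryos. Polyadenylated RNA was sequenced from 3 independent replicates of the wild-type, *cfp-1* and *set-2* strains and from 2 of *sin-3*. Whether the mothers of the mutant embryos were homozygous for RNA-seq is not given in the sources used here. CFP-1 is the CXXC protein of the SET1/COMPASS complex and SET-2 is its methyltransferase, which trimethylates lysine 4 of histone H3 at promoters, while SIN-3 is the scaffold of a histone deacetylase complex.

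A cytoplasmic ribosome holds a single copy of almost every ribosomal protein, so the proteins of both subunits are needed in near equal number. The small subunit reads the messenger RNA, the large subunit joins amino acids, and the stalk proteins bring elongation factors to the large subunit. The early embryo of *C. elegans* inherits ribosomes and ribosomal protein transcripts from the oocyte before its own genome is switched on. Transcript levels in pooled embryos therefore add up maternal and embryonic RNA.

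Library totals lay between 21596949 and 35258557 counts. Levels are given as CPM, that is counts scaled to a common library size with TMM factors, and differences as log2 fold changes. Tests are edgeR's quasi-likelihood F tests, with p-values adjusted by Benjamini-Hochberg over the 11532 genes tested. Genes were called where the adjusted p was below 0.05, and SE is the standard error of the log2 fold change. Each mutant had less transcript of its mutated gene, with log2 fold changes of -1.56 for *cfp-1* transcript, -1.53 for *set-2* transcript and -1.17 for *sin-3* transcript. A single library stood apart. Between *set-2* replicate 2 and the other *set-2* replicates the chi-square per gene was 76.2 and 86.9, against 10.2 between replicates 1 and 3. It was 18.9 to 44.9 between wild-type replicates, 21.8 to 47.1 between *cfp-1* replicates and 8.92 between the *sin-3* replicates. The level of *set-2* was 162 CPM in that library, against 87.8 and 90.03 CPM in the other *set-2* libraries and 286 CPM or more in wild-type. Sperm markers summed to at most 8.74 CPM and the 6 vitellogenins to at most 3.22 CPM in any library, which are levels near 0 for genes of sperm and adult intestine.

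In wild-type, the ribosomal protein genes were among the most abundant transcripts. Per kilobase of exon, 28 of them stood among the 100 highest of all genes tested, 51 among the 200 highest and 74 among the 500 highest. The level per kilobase had a median of 630.4 CPM over the 80 genes and ran from 35.3 CPM for *rpl-37* to 1875 CPM for *rps-23*. Small subunit genes had a median of 861 CPM per kilobase and large subunit genes one of 549 CPM per kilobase. The 5 highest were *rps-23*, whose protein lines the decoding centre, *rpl-12* at the base of the stalk, *rps-24*, *rpl-41.2*, which encodes the smallest ribosomal protein, and *rpl-23*. Their levels were 1875 ± 282, 1696 ± 133, 1669 ± 147, 1632 ± 291 and 1530.0 ± 257 CPM per kilobase (SD, n = 3), and these ranges overlapped. Levels per kilobase thus differed widely between the 80 genes, although the ribosome holds most of their proteins in near equal number.

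**Figure D1:**
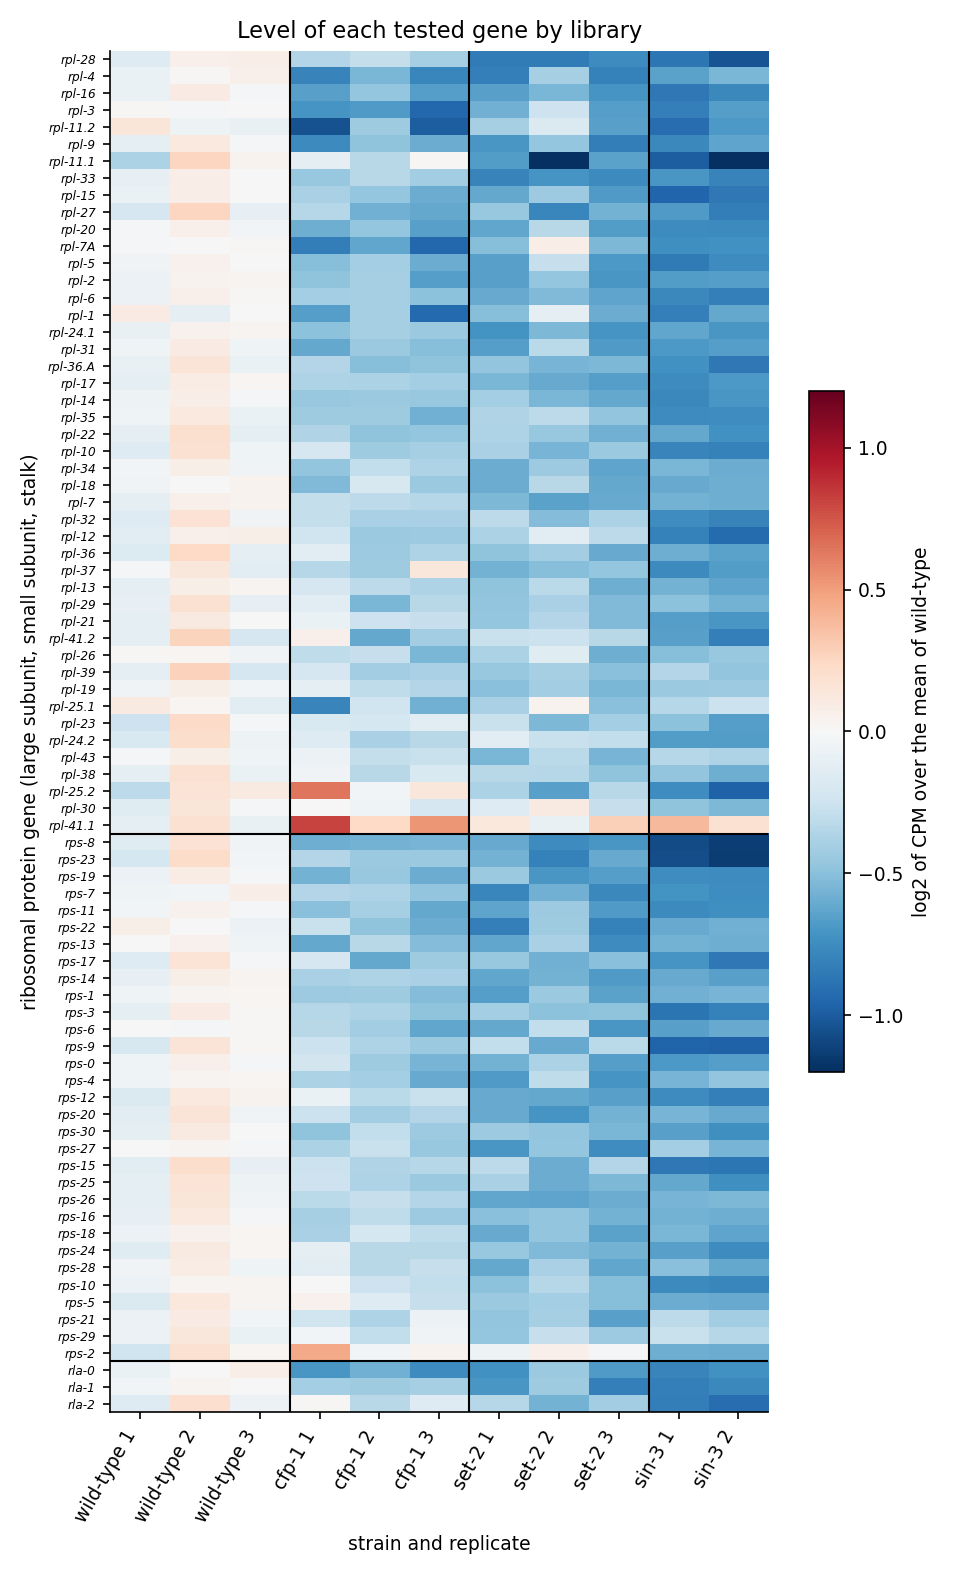
Level of each of the 80 tested ribosomal protein genes in each library, as log2 of its CPM over the mean of the 3 wild-type libraries. Rows are genes, ordered within subunit by their mean over the mutant libraries, and columns are strains and replicates. Most rows are blue (lower) in all mutant libraries, and *rpl-41.1* is red (higher) in all *cfp-1* and *sin-3* libraries.

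Most ribosomal protein genes fell in each of the mutants, with the lowest median in *sin-3*. Of the 80 genes tested, 55 fell in *cfp-1* embryos, 66 in *set-2* embryos and 77 in *sin-3* embryos. Among all genes tested, 11.4%, 7.04% and 12.5% were called lower in the same comparisons. A single ribosomal protein gene, *rpl-41.1*, rose in *cfp-1*, and 0 rose in *set-2* or *sin-3* by edgeR, by DESeq2 or at an unadjusted p under 0.05. Among all genes tested, 12.7%, 7.4% and 12.6% were called higher. The median log2 fold change over the 80 genes was -0.38 for *cfp-1*, -0.52 for *set-2* and -0.69 for *sin-3*, against -0.0017, -0.021 and -0.030 over all genes tested. These medians correspond to 76.8%, 69.9% and 62.2% of the wild-type level. The comparisons share the wild-type libraries, so they are not independent of each other.

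The fold changes of the ribosomal protein genes lay in a narrow band. Their SD over the 80 genes was 0.21 for *cfp-1*, 0.16 for *set-2* and 0.20 for *sin-3*, against 0.66, 0.71 and 0.71 over all genes tested. They are also measured more precisely, with a median SE of 0.11, 0.11 and 0.12 against 0.17, 0.17 and 0.20 over all genes tested, and with a median level of 395 CPM against 26.7 CPM. All libraries of the mutant lay below every wild-type library for 61 of the 80 genes in *cfp-1* embryos, 73 in *set-2* embryos and 79 in *sin-3* embryos, where 20.8%, 19.1% and 30.8% of all genes did so. In single libraries, the number of genes below every wild-type library was 63, 73 and 72 for *cfp-1*, 77, 74 and 78 for *set-2* and 79 and 79 for *sin-3*. In every mutant library most of the 80 genes thus lay below the wild-type range. The share of all genes tested that did so was not counted for single libraries.

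**Figure D2:**
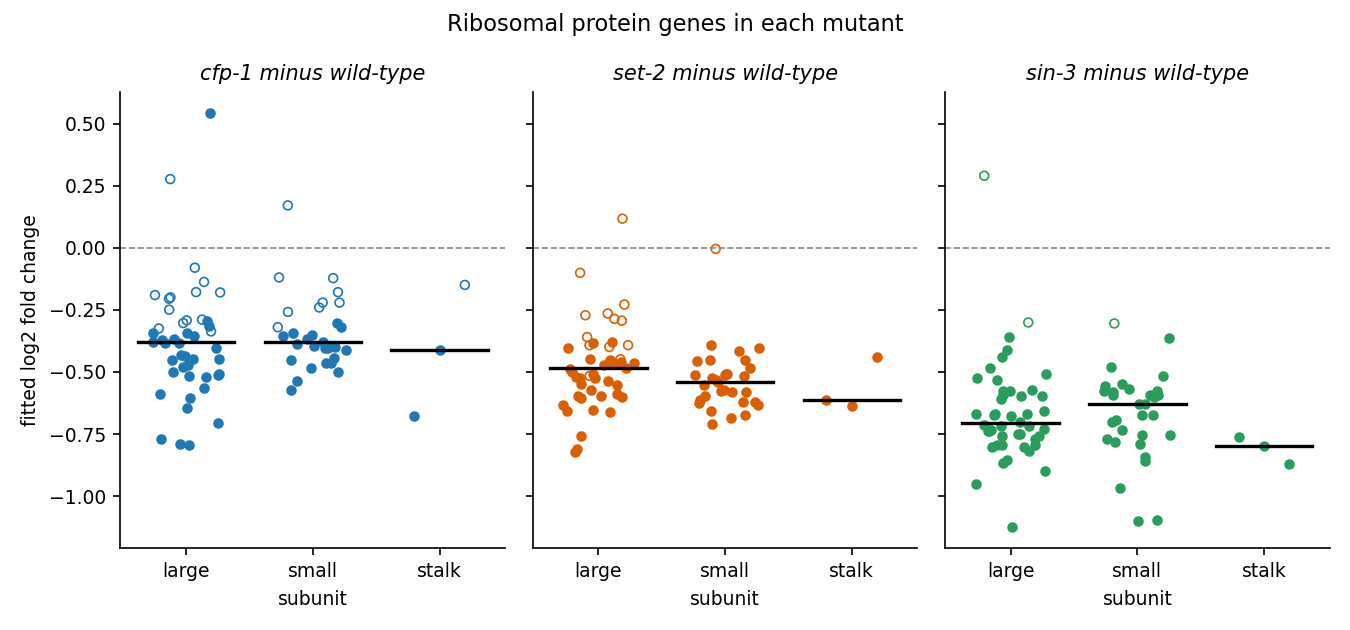
Fitted log2 fold change of each tested ribosomal protein gene in *cfp-1*, then *set-2*, then *sin-3* against wild-type, by subunit. Filled points were called at an edgeR adjusted p under 0.05, open points were not, and black lines are medians. Nearly all points lie below 0 in each mutant, with medians of -0.38, -0.52 and -0.69 over the 80 genes.

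The count of genes called in each mutant depended on single libraries. In *cfp-1*, 28 genes were called lower without *cfp-1* replicate 3 and 35 without wild-type replicate 2. Over all genes tested, 676 and 972 were then called lower, against 1315 with all libraries. In *sin-3*, 48 and 50 were called lower without *sin-3* replicate 1 and 2, when 1 *sin-3* library was left and was assumed to vary like the other strains. The medians without each of the 11 libraries in turn stayed between -0.42 and -0.34 in *cfp-1*, between -0.56 and -0.46 in *set-2* and between -0.73 and -0.64 in *sin-3*. In *set-2*, leaving out each library in turn gave 44 to 67 genes called lower, with 44 without *set-2* replicate 1. In that refit 345 of all genes tested were called lower, against 812 with all libraries. Without *set-2* replicate 2, 66 genes were called lower in *set-2*, and not *rla-2* or *rps-9*, which were called with it.

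Markers of the oocyte and of the early embryo changed together with the ribosomal protein genes in *cfp-1* and *sin-3*, and 0 of them were called by edgeR in *set-2*. The 20 oocyte and early embryo markers, all detected, summed to between 5566 and 6893 CPM in wild-type libraries, 8210.0 to 9172 CPM in *cfp-1*, 5244 to 6373 CPM in *set-2* and 10290.0 to 10340.0 CPM in *sin-3*. Of these 20 genes, 14 rose in *cfp-1* and 18 in *sin-3* and 0 fell. In *set-2*, 0 were called by edgeR or DESeq2, and 1 was lower at an unadjusted p under 0.05. The 23 embryonic transcription factors summed to between 1408 and 1511 CPM in wild-type, 987 to 1108 CPM in *cfp-1*, 1259 to 1689 CPM in *set-2* and 1081 to 1106 CPM in *sin-3*. Of the 22 tested, 14 fell and 1 rose in *cfp-1*, and 12 fell in *sin-3*. In *set-2*, 0 were called by edgeR, while 1 was higher by DESeq2, and 1 was higher and 2 were lower at an unadjusted p under 0.05. Of 13 markers of late muscle and epidermis, 9 were tested and 1 was called, higher in *set-2*. Their sum was 387 to 776 CPM in wild-type and 621.5 to 1512 CPM in *set-2*, and their part in the *set-2* result was not tested.

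A score of the mean log2 CPM of the transcription factors minus that of the oocyte list was -2.45 ± 0.19 (SD, n = 3) in wild-type, -3.54 ± 0.38 (n = 3) in *cfp-1*, -2.38 ± 0.27 (n = 3) in *set-2* and -3.96 ± 0.068 (n = 2) in *sin-3*. With this score as a covariate, 0 ribosomal protein genes were called lower in *cfp-1* or *sin-3* (12 and 25 at an unadjusted p under 0.05) and 67 were in *set-2*. Calls were also lost across all genes tested in *cfp-1* and *sin-3*. Without the score, 1315, 1446 and 812 of all genes were lower in *cfp-1*, then *sin-3*, then *set-2*, and with it 104, 3 and 1057. With the score, the median log2 fold changes of the 80 genes were -0.28, -0.49 and -0.52 in the same order. Of the 80 genes, 62, 74 and 79 were fitted below 0. The median SE of the 80 genes went from 0.11 to 0.20 in *cfp-1* and from 0.12 to 0.27 in *sin-3*, whose scores lay apart from wild-type. In pooled embryos, fewer cells of a type and less RNA per cell cannot be told apart, and strain and embryo age cannot be told apart in *cfp-1* and *sin-3*. In *set-2* the fall was measured at scores that overlapped those of wild-type.

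**Figure D3:**
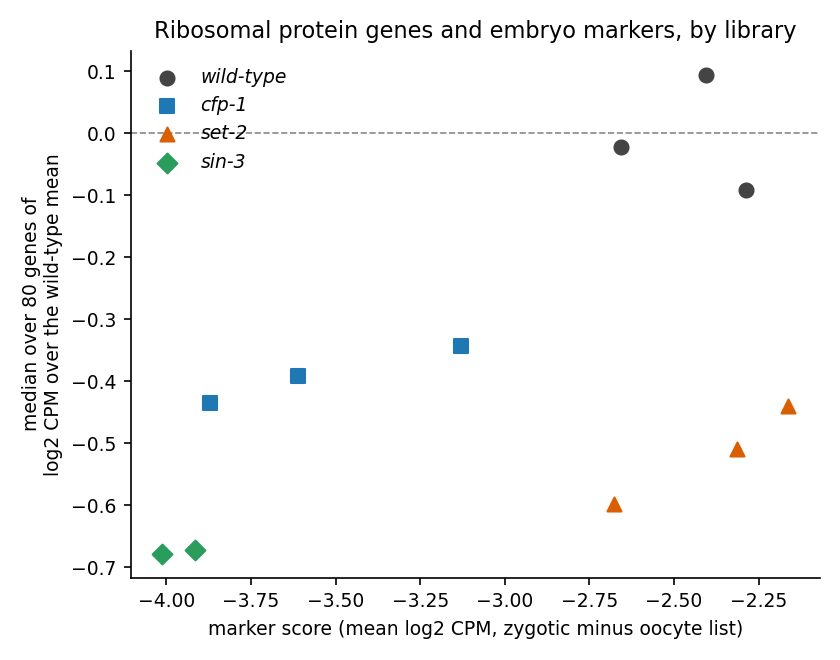
Each point is a library: the horizontal axis is the mean log2 CPM of the embryonic transcription factors minus that of the oocyte list, and the vertical axis is the median over 80 ribosomal protein genes of log2 CPM over the wild-type mean. The *set-2* libraries overlap the wild-type libraries on the horizontal axis and lie below them on the vertical axis, at -0.51, -0.44 and -0.60.

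In *cfp-1*, the largest falls among called genes with no overlap were those of 4 large subunit genes. *rpl-3* (WBGene00004414, chromosome III from 3867854 to 3869587 on the forward strand), whose protein reaches to the peptidyl transferase centre, was at 658, 638 and 653 CPM in wild-type and 398, 406 and 339 CPM in *cfp-1*, a log2 fold change of -0.77 (SE 0.12, edgeR adjusted p = 0.00134). *rpl-4* (WBGene00004415, chromosome I from 4645662 to 4646963 on the reverse strand), which lines the exit tunnel, was at 503, 539.6 and 556 CPM in wild-type and 305, 365 and 309 CPM in *cfp-1*, a log2 fold change of -0.71 (SE 0.13, edgeR adjusted p = 0.00265). *rpl-7A* (WBGene00004419, chromosome IV from 4389143 to 4390590 on the reverse strand), the orthologue of human RPL7A, was at 218, 223 and 224 CPM in wild-type and 125, 144 and 116 CPM in *cfp-1*, a log2 fold change of -0.79 (SE 0.15, edgeR adjusted p = 0.0038). All 3 *cfp-1* libraries lay well below the wild-type range for each of these genes. *rpl-11.2* had the fitted value farthest from 0, at -0.79 (SE 0.17, edgeR adjusted p = 0.00671), and is described with its paralogue. These 4 calls were kept without each of the 11 libraries in turn.

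The 24 genes not called in *cfp-1* comprised 14 of the large subunit, 9 of the small subunit and *rla-2*. Their log2 fold changes ran from -0.34 to 0.28, and 22 of them were fitted below 0. *rps-2* (WBGene00004471, chromosome IV from 7925298 to 7926391 on the reverse strand), whose protein lies at the entry of the messenger RNA channel, was at 382, 514 and 460.0 CPM in wild-type and 619.9, 441 and 466 CPM in *cfp-1*, so the libraries overlapped and the log2 fold change was 0.17 (SE 0.14, edgeR adjusted p = 0.397). It was likewise not called in *set-2*, at 433, 471 and 449 CPM and a log2 fold change of -0.004 (SE 0.14, edgeR adjusted p = 0.989). In *sin-3* it was at 301 and 299.6 CPM, below every wild-type library, with -0.59 (SE 0.16, edgeR adjusted p = 0.0189, lost without wild-type replicate 2, *sin-3* replicate 1 or *sin-3* replicate 2, adjusted p between 0.0633 and 0.135). *rps-2* was thus the small subunit gene with the highest fitted value in *cfp-1* and in *set-2*.

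In *set-2*, the largest falls were those of *rpl-11.1*, *rpl-28*, *rpl-33* and *rps-7*. *rpl-28* (WBGene00004442, chromosome V from 12727593 to 12728112 on the reverse strand), the orthologue of human RPL28, was at 188, 217 and 221 CPM in wild-type and 116, 117 and 123 CPM in *set-2*, a log2 fold change of -0.81 (SE 0.09, edgeR adjusted p = 0.000416). *rpl-33* (WBGene00004447, chromosome II from 7105563 to 7106316 on the forward strand), the orthologue of human RPL35A, was at 306, 346 and 329 CPM in wild-type and 188, 200.2 and 193 CPM in *set-2*, a log2 fold change of -0.76 (SE 0.09, edgeR adjusted p = 0.000404). *rps-7* (WBGene00004476, chromosome I from 10330879 to 10331808 on the forward strand), which takes part in the maturation of small subunit rRNA in yeast and human cells, was at 707, 714 and 773 CPM in wild-type and 424, 489 and 427 CPM in *set-2*, a log2 fold change of -0.71 (SE 0.09, edgeR adjusted p = 0.000885). For none of *rpl-28*, *rpl-33* and *rps-7* did a *set-2* library overlap wild-type, while *rpl-11.1* was lower in *set-2* replicate 2 than in the other *set-2* libraries. The calls of *rpl-28*, *rpl-33* and *rps-7* were kept without each library in turn.

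Of the 14 genes not called in *set-2*, 13 were large subunit genes and the other was *rps-2*. The *set-2* replicate 2 library was the highest of its strain for 9 of these 14 genes, which were *rpl-1*, *rpl-7A*, *rpl-11.2*, *rpl-12*, *rpl-25.1*, *rpl-26*, *rpl-30*, *rpl-41.2* and *rps-2*. This was not particular to genes that were not called. The same library was the highest for called genes such as *rpl-3* (435, 548 and 410 CPM), *rpl-4* (301, 405 and 304 CPM) and *rla-0* (496, 604 and 514 CPM). *rpl-7A* was at 156, 234.6 and 152 CPM in *set-2*, so that replicate 2 was above all wild-type libraries, and its log2 fold change was -0.29 (SE 0.15, edgeR adjusted p = 0.202). In this mutant, 30 of 31 small subunit genes and 33 of 46 large subunit genes were called lower.

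In *sin-3*, the largest falls were those of *rpl-11.1* and of 3 small subunit genes. *rps-23* (WBGene00004492, chromosome IV from 12390298 to 12391053 on the reverse strand) was at 781, 1050.0 and 881 CPM in wild-type and 433 and 409.5 CPM in *sin-3*, a log2 fold change of -1.10 (SE 0.14, edgeR adjusted p = 0.000422). *rps-8* (WBGene00004477, chromosome IV from 7312958 to 7313860 on the reverse strand), a protein of the small subunit body, was at 678, 848 and 728 CPM in wild-type and 358 and 344 CPM in *sin-3*, a log2 fold change of -1.10 (SE 0.11, edgeR adjusted p = 0.0002). *rps-9* (WBGene00004478, chromosome II from 11125371 to 11126362 on the reverse strand), whose bacterial counterpart binds rRNA early in assembly, was at 644, 823 and 743 CPM in wild-type and 379 and 375 CPM in *sin-3*, a log2 fold change of -0.97 (SE 0.13, edgeR adjusted p = 0.000777). The 2 *sin-3* libraries lay close together for these genes, far below the wild-type range. Their calls were kept without each library in turn.

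The genes not called in *sin-3* were *rpl-25.1*, *rps-29* and *rpl-41.1*, with log2 fold changes of -0.30, -0.30 and 0.29 and edgeR adjusted p-values of 0.242, 0.08 and 0.223. All other tested members fell in this mutant. Without *sin-3* replicate 1 or 2, fewer were called, as given above.

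The mutants were also compared with each other. Between *cfp-1* and *set-2*, 9 ribosomal protein genes were higher and 1 was lower in *cfp-1*, where 12.6% and 9.5% of all genes were called. With edgeR, 11.25% of the 80 genes were thus higher, and with DESeq2 it was 15 genes or 18.8%, where 13.99% of all genes were called higher. The median log2 difference over the 80 genes was 0.13, but 0.037 under upper-quartile scaling and 0.27 with the age score as a covariate. With that covariate, 0 of the 80 genes and 6 of all genes tested were called. *rpl-25.2*, *rpl-11.1* and *rpl-7A* differed most, with *rpl-7A* lower in *cfp-1* at -0.50 (SE 0.15, edgeR adjusted p = 0.0359, lost without wild-type replicate 3, *cfp-1* replicate 1, *cfp-1* replicate 3, *set-2* replicate 2, *sin-3* replicate 1 or *sin-3* replicate 2, adjusted p between 0.0525 and 0.146). The *cfp-1* levels of *rpl-7A* were 125, 144 and 116 CPM and those in *set-2* were 156, 234.6 and 152 CPM, so the groups did not overlap. The number higher in *cfp-1* was 2 without *cfp-1* replicate 3, 3 without *set-2* replicate 1 and 5 without *sin-3* replicate 1 or 2.

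In *cfp-1* compared with *sin-3*, 22 ribosomal protein genes (27.5%) were higher and 0 were lower by edgeR, by DESeq2 or at an unadjusted p under 0.05, where 6.25% and 5.34% of all genes were called. Upper-quartile scaling gave 35 genes higher (43.75%, where 8.31% of all genes were). The age covariate gave 9 higher (11.25%, where 3.18% of all genes were). The median log2 difference was 0.28. The 22 comprised 11 large subunit genes, 10 small subunit genes and *rla-2*. The largest differences were those of *rpl-25.2*, *rpl-11.1* and *rps-2*, and *rps-2* had a log2 difference of 0.76 (SE 0.16, edgeR adjusted p = 0.0124, lost without *sin-3* replicate 1 or *sin-3* replicate 2, adjusted p = 0.104 and 0.136). The count was 1 without *sin-3* replicate 1, 0 without *sin-3* replicate 2 and 10 without *cfp-1* replicate 1.

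Between *set-2* and *sin-3*, 15 of the 80 genes (18.8%) were higher in *set-2* and 0 were lower by edgeR, by DESeq2 or at an unadjusted p under 0.05. Among all genes 19.9% and 20.8% were called. Under upper-quartile scaling 37 of the 80 genes (46.2%) and 28.1% of all genes were higher. With the age score as a covariate, 0 of the 80 and 2 of all genes tested were higher. The median log2 difference was 0.16 under TMM scaling, 0.31 under upper-quartile scaling and -0.062 with the age covariate, so its direction depended on that term. *rpl-12* (WBGene00004424, chromosome IV from 13239587 to 13240651 on the reverse strand) was at 1042, 1237 and 1094 CPM in *set-2* and 772 and 716 CPM in *sin-3*, a log2 difference of 0.60 (SE 0.12, edgeR adjusted p = 0.00322). *rps-2* differed by 0.59 (SE 0.16, edgeR adjusted p = 0.0129, lost without *sin-3* replicate 1 or *sin-3* replicate 2, adjusted p = 0.0883 and 0.0811) and *rps-9* by 0.56 (SE 0.13, edgeR adjusted p = 0.00668, lost without *sin-3* replicate 1 or *sin-3* replicate 2, adjusted p = 0.058 and 0.0572). *rpl-12* was at 1234, 1412 and 1425 CPM in wild-type and was called lower in *sin-3*, at -0.87 (SE 0.12, edgeR adjusted p = 0.000817), while its value in *set-2* was -0.27 (SE 0.11, edgeR adjusted p = 0.103). Without *set-2* replicate 1 the count of 15 was 8, and over all genes tested it went from 2298 to 1642. Without *sin-3* replicate 1 or 2, when 1 *sin-3* library was left, the median was 0.16 and 0.14. Fewer genes were then called higher, among the 80 and among all genes tested.

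Summed over the 81 genes, ribosomal proteins took 3.02%, 3.35% and 3.03% of the counts on protein-coding genes in the wild-type libraries. The share was 2.73%, 2.46% and 2.36% for *cfp-1* libraries, 2.51%, 2.44% and 2.31% for *set-2* libraries and 1.90% and 1.84% for *sin-3* libraries. The means were 3.13% ± 0.19, 2.52% ± 0.19 and 2.42% ± 0.10 (SD, n = 3 each) in wild-type, then *cfp-1*, then *set-2*. In *sin-3* the mean was 1.87% ± 0.041 (SD, n = 2). The mutant means were 80.3%, 77.3% and 59.8% of the wild-type share. No mutant library reached the lowest wild-type share, and both *sin-3* libraries lay below all others. These are relative amounts, and the total RNA of an embryo was not measured.

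**Figure D4:**
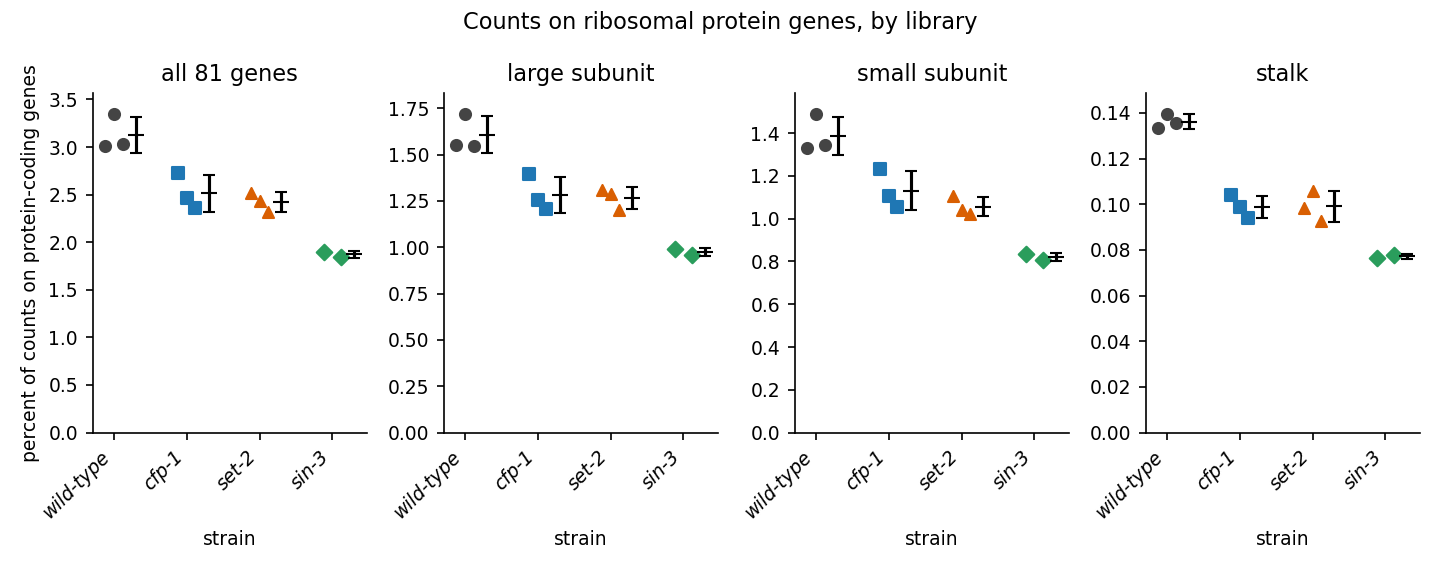
Percent of a library's counts on protein-coding genes that fell on ribosomal protein genes, for all 81 genes and by subunit. Points are libraries and bars show the mean with the SD of the strain. All mutant libraries lie below the wild-type libraries in each panel.

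Both subunits were lower together. The large subunit genes took 1.61% ± 0.099 of counts in wild-type and 1.29% ± 0.097, 1.27% ± 0.057 (SD, n = 3 each) and 0.975% ± 0.023 (SD, n = 2) in *cfp-1*, then *set-2*, then *sin-3*. The small subunit genes took 1.39% ± 0.088 in wild-type and 1.13% ± 0.091, 1.06% ± 0.046 (SD, n = 3 each) and 0.820% ± 0.019 (SD, n = 2). Summed counts of the large over the small subunit had a ratio of 1.17, 1.16 and 1.15 in the wild-type libraries, 1.13, 1.14 and 1.14 for *cfp-1* libraries, 1.18, 1.24 and 1.18 for *set-2* libraries and 1.19 and 1.19 for *sin-3* libraries. The ratio was thus slightly below the wild-type range in *cfp-1* and slightly above it in *set-2* and *sin-3*, and these differences were not tested. The median log2 fold change was -0.38 for both subunits in *cfp-1*, -0.49 for the large and -0.54 for the small subunit in *set-2*. It was -0.71 and -0.63 in *sin-3*.

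The stalk genes moved with the rest. *rla-0* (WBGene00004408, chromosome I from 10567894 to 10569017 on the forward strand), which anchors the stalk, was at 776, 823 and 868 CPM in wild-type, 506, 550.3 and 488 CPM in *cfp-1*, 496, 604 and 514 CPM in *set-2* and 474 and 497 CPM in *sin-3*. Its log2 fold changes were -0.68 (SE 0.10, edgeR adjusted p = 0.00107), -0.61 (SE 0.10, edgeR adjusted p = 0.00339) and -0.76 (SE 0.12, edgeR adjusted p = 0.00127), and no mutant library overlapped wild-type. *rla-1*, one of the proteins that dimerize on the anchor, was at 372, 388 and 378 CPM in wild-type and fell by 0.41, 0.64 and 0.80 on the log2 scale in *cfp-1*, then *set-2*, then *sin-3* (edgeR adjusted p = 0.0143, 0.00305 and 0.00107). *rla-2*, its partner, was at 183, 234.6 and 194 CPM in wild-type and 206, 162 and 183 CPM in *cfp-1*, which overlapped, with -0.15 (SE 0.12, edgeR adjusted p = 0.392). It fell in *set-2*, at -0.44 (SE 0.12, edgeR adjusted p = 0.032, lost without wild-type replicate 2, wild-type replicate 3, *set-2* replicate 1, *set-2* replicate 2, *set-2* replicate 3, *sin-3* replicate 1 or *sin-3* replicate 2, adjusted p between 0.05005 and 0.114), and in *sin-3*, at -0.87 (SE 0.14, edgeR adjusted p = 0.0015). The difference of *rla-2* between *cfp-1* and *sin-3* was 0.72 (SE 0.14, edgeR adjusted p = 0.00829, lost without *sin-3* replicate 1 or *sin-3* replicate 2, adjusted p = 0.074 and 0.121).

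Of the 5 genes with the most counts per kilobase, *rps-23*, *rps-24* and *rpl-41.2* were called in *sin-3*, as were *rpl-12* and *rpl-23*. *rps-24* was at 718, 856 and 804 CPM in wild-type and 504 and 469 CPM in *sin-3*, with -0.70 (SE 0.12, edgeR adjusted p = 0.00177). *rpl-23* (WBGene00004435, chromosome III from 5705525 to 5706127 on the reverse strand) was at 651, 911 and 766 CPM in wild-type and 552 and 489 CPM in *sin-3*, with -0.58 (SE 0.14, edgeR adjusted p = 0.013, lost without *sin-3* replicate 1 or *sin-3* replicate 2, adjusted p = 0.0639 and 0.129). In *cfp-1* neither passed the test, with values of -0.26 (SE 0.10, edgeR adjusted p = 0.083) and -0.18 (SE 0.12, edgeR adjusted p = 0.318). In *set-2*, *rps-24* fell, with -0.52 (SE 0.10, edgeR adjusted p = 0.00734), and *rpl-23* had -0.40 (SE 0.13, edgeR adjusted p = 0.0521).

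Most ribosomal proteins of *C. elegans* have a single gene. The sets that share a number and differ in a suffix were *rpl-11.1* and *rpl-11.2*, *rpl-25.1* and *rpl-25.2*, *rpl-24.1* and *rpl-24.2*, *rpl-41.1* and *rpl-41.2*, and *rpl-36* and *rpl-36.A*. The last set are orthologues of different human proteins, RPL36 and RPL36A, and *rpl-24.2* is the orthologue of human RSL24D1, a factor of large subunit assembly, rather than a second RPL24. Reads that match several places get a low mapping score and were removed by the authors, so near-identical stretches of a pair may be undercounted and the levels of *rpl-41.1* and *rpl-41.2*, which encode a very short protein, are uncertain.

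RPL11 sits with the 5S rRNA in the central protuberance of the large subunit. *rpl-11.1* (WBGene00004422, chromosome V from 3585312 to 3586064 on the reverse strand) was at 201, 314 and 269.9 CPM in wild-type, 242, 208 and 264 CPM in *cfp-1*, 164, 112 and 168 CPM in *set-2* and 132 and 109 CPM in *sin-3*. *rpl-11.2* (WBGene00004423, chromosome X from 2241738 to 2242618 on the reverse strand) was at 318, 276 and 271 CPM in wild-type, 139.6, 215 and 145 CPM in *cfp-1*, 219, 256 and 184 CPM in *set-2* and 153 and 179 CPM in *sin-3*. Levels of *rpl-11.1* in *cfp-1* thus stayed within the wild-type range, while those of *rpl-11.2* were below it.

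For *rpl-11.1* the log2 fold changes were -0.14 (SE 0.18, edgeR adjusted p = 0.622) in *cfp-1*, -0.82 (SE 0.19, edgeR adjusted p = 0.0134) in *set-2* (lost without wild-type replicate 2 or wild-type replicate 3, adjusted p = 0.0537 and 0.0534) and -1.12 (SE 0.21, edgeR adjusted p = 0.00355) in *sin-3* (lost without *sin-3* replicate 2, adjusted p = 0.0534). For *rpl-11.2* they were -0.79 (SE 0.17, edgeR adjusted p = 0.00671), -0.39 (SE 0.17, edgeR adjusted p = 0.135) and -0.79 (SE 0.19, edgeR adjusted p = 0.0127, lost without *sin-3* replicate 1 or *sin-3* replicate 2, adjusted p = 0.131 and 0.0556). *rpl-11.1* was higher in *cfp-1* than in *set-2*, by 0.68 (SE 0.18, edgeR adjusted p = 0.0231, lost without *cfp-1* replicate 3 or *set-2* replicate 2, adjusted p = 0.0985 and 0.0557), and than in *sin-3*, by 0.99 (SE 0.21, edgeR adjusted p = 0.0139, lost without *sin-3* replicate 1 or *sin-3* replicate 2, adjusted p = 0.072 and 0.174). Per kilobase, the ratio of *rpl-11.1* to *rpl-11.2* was 0.708, 1.27 and 1.11 in wild-type and 1.94, 1.08 and 2.04 in *cfp-1*, which overlapped. The sum of both genes was 550.0 ± 36.2 CPM in wild-type, 404 ± 20.8 in *cfp-1*, 368 ± 15.8 in *set-2* (SD, n = 3 each) and 286 ± 2.11 CPM in *sin-3* (SD, n = 2), and no mutant library overlapped wild-type.

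**Figure D5:**
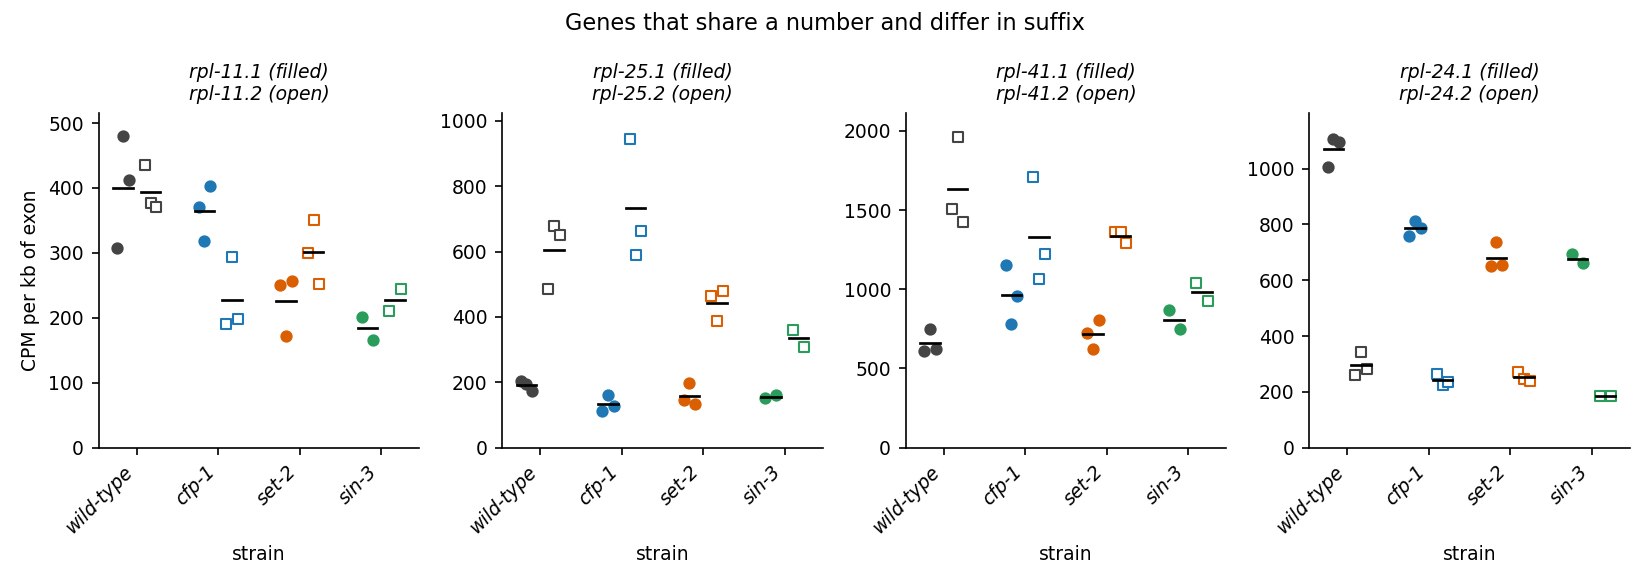
Levels, in CPM per kilobase of exon, of the genes that share a number and differ in a suffix, by strain. Points are libraries, filled or open as named above each panel, and lines are means. *rpl-11.1* in *cfp-1* lies within the wild-type range while *rpl-11.2* lies below it, and *rpl-41.1* has all *cfp-1* libraries above wild-type.

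RPL25 stands at the mouth of the exit tunnel, and its human orthologue is RPL23A. *rpl-25.2* (WBGene00004439, chromosome I from 8329062 to 8329647 on the reverse strand) was at 240.2, 335 and 322 CPM in wild-type, 467, 292 and 328 CPM in *cfp-1*, 229.8, 191 and 237 CPM in *set-2* and 179 and 153 CPM in *sin-3*. *rpl-25.1* (WBGene00004438, chromosome X from 4715178 to 4715796 on the forward strand) was at 101, 95.7 and 86.1 CPM in wild-type, 54.6, 80.2 and 63.4 CPM in *cfp-1*, 72.3, 97.1 and 66.5 CPM in *set-2* and 74.4 and 78.9 CPM in *sin-3*. The *cfp-1* libraries of *rpl-25.2* overlapped wild-type, and those of *rpl-25.1* lay below it.

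For *rpl-25.2* the value in *cfp-1* was 0.28 (SE 0.18, edgeR adjusted p = 0.278) and in *set-2* -0.45 (SE 0.18, edgeR adjusted p = 0.108), and it fell in *sin-3*, with -0.85 (SE 0.20, edgeR adjusted p = 0.0114, lost without *sin-3* replicate 1 or *sin-3* replicate 2, adjusted p = 0.0661 and 0.111). *rpl-25.1* fell in *cfp-1*, with -0.52 (SE 0.16, edgeR adjusted p = 0.036, lost without wild-type replicate 1, wild-type replicate 2, wild-type replicate 3, *cfp-1* replicate 1, *cfp-1* replicate 3, *sin-3* replicate 1 or *sin-3* replicate 2, adjusted p between 0.0532 and 0.123), and its values in *set-2* and *sin-3* were -0.26 (SE 0.16, edgeR adjusted p = 0.274) and -0.30 (SE 0.18, edgeR adjusted p = 0.242). Between mutants, *rpl-25.2* was higher in *cfp-1* than in *set-2*, with 0.73 (SE 0.18, edgeR adjusted p = 0.0159), and than in *sin-3*, with 1.13 (SE 0.21, edgeR adjusted p = 0.00668, lost without *sin-3* replicate 1 or *sin-3* replicate 2, adjusted p = 0.0587 and 0.113). *rpl-25.2* had the largest difference of the called genes in both comparisons. The ratio of *rpl-25.2* to *rpl-25.1* per kilobase was 2.36, 3.50 and 3.74 in wild-type and 8.54, 3.64 and 5.17 in *cfp-1*, so 1 *cfp-1* library lay within the wild-type range.

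*rpl-41.1* (WBGene00023067, chromosome I from 4789190 to 4789592 on the forward strand) and *rpl-41.2* (WBGene00023068, chromosome I from 4790292 to 4790642 on the forward strand) are neighbours on one strand. *rpl-41.1* was at 203, 248 and 206 CPM in wild-type and 382, 258 and 316 CPM in *cfp-1*, with no overlap, and it rose, by 0.54 (SE 0.15, edgeR adjusted p = 0.0222, lost without wild-type replicate 1, wild-type replicate 3, *cfp-1* replicate 1 or *cfp-1* replicate 3, adjusted p between 0.0623 and 0.0794). Its levels were 239, 206 and 267 CPM in *set-2* and 287 and 248 CPM in *sin-3*, with values of 0.12 (SE 0.15, edgeR adjusted p = 0.625) and 0.29 (SE 0.17, edgeR adjusted p = 0.223). *rpl-41.2* was at 423, 550.1 and 398 CPM in wild-type, 478, 298 and 343 CPM in *cfp-1*, 381, 382 and 362 CPM in *set-2* and 290.5 and 259 CPM in *sin-3*. It fell in *sin-3*, with -0.74 (SE 0.19, edgeR adjusted p = 0.0163, lost without wild-type replicate 2, *sin-3* replicate 1 or *sin-3* replicate 2, adjusted p between 0.0546 and 0.132), and had -0.29 (SE 0.17, edgeR adjusted p = 0.222) in *cfp-1* and -0.29 (SE 0.17, edgeR adjusted p = 0.258) in *set-2*.

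The ratio of *rpl-41.2* to *rpl-41.1* per kilobase was 2.47, 2.62 and 2.29 in wild-type, 1.48, 1.37 and 1.28 in *cfp-1*, 1.88, 2.19 and 1.61 for *set-2* libraries and 1.197 and 1.23 for *sin-3* libraries. No mutant library reached the wild-type range. In a two-sided exact permutation test over libraries the p was 0.1 for each mutant, the smallest that 3 against 3 or 3 against 2 libraries allow, and 0.3 after adjustment over the 12 such tests of a ratio. The sum of both genes was 676 ± 107 CPM in wild-type, 692 ± 155 in *cfp-1*, 612 ± 21.7 in *set-2* (SD, n = 3 each) and 542 ± 49.9 in *sin-3* (SD, n = 2), and libraries of *cfp-1* and *set-2* overlapped wild-type.

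*rpl-24.1* (WBGene00004436, chromosome I from 4585115 to 4586176 on the forward strand) fell in all mutants, from 548, 602 and 596 CPM in wild-type to 413, 441 and 428 CPM in *cfp-1*, 354, 401 and 356 CPM in *set-2* and 378 and 359 CPM in *sin-3*. Its log2 fold changes were -0.45 (SE 0.09, edgeR adjusted p = 0.00509), -0.65 (SE 0.09, edgeR adjusted p = 0.00125) and -0.66 (SE 0.10, edgeR adjusted p = 0.00138). Per kilobase, the ratio of *rpl-24.1* to *rpl-24.2* was 3.872, 3.237 and 3.885 in wild-type and 2.411, 3.014 and 2.72 in *set-2*, with no overlap. The exact permutation test gave p = 0.1 for this ratio in *set-2*, and 0.3 after adjustment over the 12 tests. The assembly factor gene *rpl-24.2* (WBGene00004437, chromosome I from 9669415 to 9670098 on the forward strand) was at 152, 199.5 and 164 CPM in wild-type and was called in *sin-3*, at 108 and 108 CPM and -0.67 (SE 0.13, edgeR adjusted p = 0.0039, lost without *sin-3* replicate 1, adjusted p = 0.0551). Its values in *cfp-1* and *set-2* were -0.29 (SE 0.11, edgeR adjusted p = 0.0835) and -0.23 (SE 0.11, edgeR adjusted p = 0.188). For *set-2* over *sin-3* its log2 difference was 0.44 (SE 0.13, edgeR adjusted p = 0.0185, lost without *set-2* replicate 1, *sin-3* replicate 1 or *sin-3* replicate 2, adjusted p between 0.0578 and 0.109).

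*rpl-36.A* fell in all mutants, with -0.45 (SE 0.10, edgeR adjusted p = 0.00723), -0.52 (SE 0.10, edgeR adjusted p = 0.0058) and -0.79 (SE 0.11, edgeR adjusted p = 0.00085) in *cfp-1*, then *set-2*, then *sin-3*, from 295, 348 and 296 CPM in wild-type. *rpl-36*, at 206, 272 and 214 CPM in wild-type, had -0.30 (SE 0.12, edgeR adjusted p = 0.0949) in *cfp-1* and fell in *set-2*, with -0.50 (SE 0.12, edgeR adjusted p = 0.0211, lost without wild-type replicate 2, *set-2* replicate 1 or *set-2* replicate 3, adjusted p between 0.0746 and 0.0775), and in *sin-3*, with -0.61 (SE 0.14, edgeR adjusted p = 0.00944, lost without *sin-3* replicate 1 or *sin-3* replicate 2, adjusted p = 0.0801 and 0.0854).

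Ribosomal proteins whose symbols lie outside the rule fell as well. *ubq-2* encodes ubiquitin joined to RPL40, *ubl-1* a ubiquitin-like protein joined to RPS27A, and *rack-1* the scaffold protein RACK1 at the head of the small subunit. *ubq-2* was at 464, 527 and 472 CPM in wild-type, 384, 382 and 357 CPM in *cfp-1*, 364, 349.5 and 357 CPM in *set-2* and 276 and 259.8 CPM in *sin-3*, with log2 fold changes of -0.38 (SE 0.09, edgeR adjusted p = 0.00946), -0.45 (SE 0.09, edgeR adjusted p = 0.0072) and -0.86 (SE 0.10, edgeR adjusted p = 0.000366). *ubl-1* fell by 0.26, 0.62 and 0.84 on the log2 scale (edgeR adjusted p = 0.0419, 0.000977 and 0.000333). *rack-1* fell by 0.56, 0.53 and 0.87 on the log2 scale (edgeR adjusted p = 0.0039, 0.00923 and 0.000865). No mutant library overlapped wild-type for any of the 3 genes. With the age score as a covariate, 0 of the 3 were called lower in *cfp-1* or *sin-3* (0 and 2 at an unadjusted p under 0.05), and 3 were in *set-2*. In *cfp-1*, the call of *ubq-2* was lost without *cfp-1* replicate 3 (adjusted p = 0.0505), and that of *ubl-1* without any library but *cfp-1* replicate 1 and *set-2* replicate 2 (adjusted p between 0.057 and 0.139).

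Some of the other genes of ribosome production were called as well. Of 37 listed genes of ribosome assembly and rRNA synthesis, 31 were tested. Of these, 12 fell and 1 rose in *cfp-1*, 7 fell in *set-2* and 10 fell in *sin-3*, with median log2 fold changes of -0.30, -0.18 and -0.23. The shares that fell were 38.7%, 22.6% and 32.3%, against 11.4%, 7.04% and 12.5% of all genes tested. *fib-1*, the fibrillarin that methylates rRNA, had -0.30 (SE 0.12, edgeR adjusted p = 0.0796) in *cfp-1* and -0.16 (SE 0.13, edgeR adjusted p = 0.415) in *sin-3* and fell in *set-2*, with -0.48 (SE 0.12, edgeR adjusted p = 0.0194). *eif-6*, which keeps the subunits apart in late assembly, was the gene that rose in *cfp-1*, with 0.31 (SE 0.10, edgeR adjusted p = 0.0437). Of the 6 elongation factor genes, *eef-1A.1*, which brings aminoacyl-tRNA to the ribosome, was the 1 that fell in each mutant (16.7% of the list), by 0.59, 0.47 and 0.78 on the log2 scale (edgeR adjusted p = 0.00788, 0.0359 and 0.00408). The call of *eif-6* was lost without each wild-type library, *cfp-1* replicate 1 or 3 or either *sin-3* library (adjusted p between 0.0534 and 0.158), and that of *fib-1* without wild-type replicate 2 or 3 or *set-2* replicate 1 or 3 (adjusted p between 0.0523 and 0.0933). The call of *eef-1A.1* was lost in *set-2* without wild-type replicate 2 or 3, *cfp-1* replicate 3, *set-2* replicate 1 or 3 or either *sin-3* library (adjusted p between 0.0541 and 0.147), and in *sin-3* without *sin-3* replicate 1 (adjusted p = 0.0541). With the age score as a covariate, 0 of the 6 elongation factor genes were called lower in *cfp-1* or *sin-3*, and 1 was in *set-2*. *eef-2*, the translocase, had -0.07 (SE 0.11, edgeR adjusted p = 0.698), 0.02 (SE 0.11, edgeR adjusted p = 0.918) and -0.35 (SE 0.12, edgeR adjusted p = 0.0578).

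Of 8 regulators of ribosomal protein synthesis, among them *let-363*, the TOR kinase, 0 were called in *cfp-1* or *sin-3* by edgeR, where 5 and 1 were fitted below 0. At an unadjusted p under 0.05, 1 was higher and 1 lower in *cfp-1* and 1 was higher in *sin-3*, and DESeq2 called 1 higher in each. In *set-2*, *let-363* fell, with -0.62 (SE 0.12, edgeR adjusted p = 0.00724), and no other was called. *larp-1*, the orthologue of a protein that binds ribosomal protein messages in human cells, had 0.14 (SE 0.19, edgeR adjusted p = 0.625), -0.33 (SE 0.19, edgeR adjusted p = 0.253) and 0.41 (SE 0.21, edgeR adjusted p = 0.171). Compared with *sin-3*, 5 of the 8 (62.5%) were lower in *set-2*, where 20.8% of all genes were. With the age score as a covariate, 0 of the 8 and 0 of all genes tested were called lower in this comparison.

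The 81 genes are spread over all chromosomes. Chromosome I holds 25 (30.9%), where 14.4% of all protein-coding genes lie, and chromosome X holds 2 (2.47%), where 13.5% of protein-coding genes lie. These 2 are *rpl-11.2* and *rpl-25.1*, each a member of a paralogue set. Both were called lower in *cfp-1*, as were 55 of the 80 tested genes (68.75%) in all. The call of *rpl-25.1* was lost without single libraries, as given above. *rpl-11.1* and *rpl-25.2*, on chromosomes V and I, were not called in *cfp-1*.

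The tested genes are short, with a median summed exon length of 521.5 bases against 1462 bases for all genes tested. Across the 80 genes, Spearman's correlation of log2 fold change with exon length was -0.42 for *cfp-1*, -0.12 for *set-2* and -0.22 for *sin-3*, so that longer genes tended to have lower values in *cfp-1*. Across all genes tested it was -0.14, -0.14 and 0.15. Genes are not independent replicates, and in these data all genes of a library share its depth and RNA quality, so the correlations are given as descriptions.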

How the data were processed

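RNA-seq was made from early embryos of 4 strains (2 libraries of *sin-3* and 3 of every other strain). The authors demultiplexed with bcl2fastq 2.17.1.14, aligned to WS254 with STAR 2.4.1d, removed reads of low mapping score with SAMtools 0.1.19 and counted per gene with HTSeq 0.7.2. Raw counts per gene were deposited for 46772 rows, without normalization. Their tables of mutant against wild-type comparisons (fold changes, adjusted p-values and mean normalized counts, from DESeq2 1.10.1 in R 3.2.4) were not used.

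Rows were limited to 19698 protein-coding genes by Ensembl 115, and the 11532 with a mean normalized count above 10 were tested. Coordinates and exon lengths are from the same annotation of WBcel235. All 11 libraries were fitted together in edgeR 4.0.16 (R 4.3.3) with TMM factors, a mean per strain, no block and 7 residual degrees of freedom, by the quasi-likelihood test with Benjamini-Hochberg adjustment. SE is the absolute log2 fold change over the square root of F. The square root of the common dispersion was 0.173. CPM used the TMM-scaled library size. Ratios of paralogues were compared by exact permutation tests over libraries. The fits were tested on simulated data. DESeq2 1.42.0 was an alternative tool. Levels and marker sums were handled in Python 3.11.15 with pandas 2.3.3 and figures drawn in matplotlib 3.10.9.

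Library totals of 21596949 to 35258557 counts give each member but *rpl-42* ample depth, so spread between libraries and not counting error limits the comparisons. The replicates are independent per the study's methods. Groups come from the labels of each sample. No column of values was without a sample.

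The members, the gene lists and the tests were chosen with earlier results of these data known. Genes were named by a rule: per mutant against wild-type, the 4 largest falls and the 4 largest rises among called members whose libraries did not overlap; per pair of mutants, the 3 largest called differences; all paralogue sets; the stalk genes; the 5 highest in wild-type per kilobase; *ubq-2*, *ubl-1* and *rack-1*; and the mutated genes. *rps-29* and the named genes of the assembly, elongation and regulator lists were chosen after their values were seen. Alternatives were another tool, scaling, low-count filter, sample set, block, an embryo age covariate, and leaving out each library. Whether sequences of these genes differ between paralogues was not analysed here.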

Additional observations from a re-analysis of the deposited data

How the results depend on the processing

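For each mutant against wild-type, DESeq2, its size factors, TMM without the ribosomal protein genes, both other filters and fits of the 2 strains alone kept each count of falls within 1.5 times and each median below 0, and DESeq2 kept all 81 named calls. Upper-quartile scaling moved the median of all genes by 0.12 in *set-2* against wild-type and by 0.15 in *set-2* against *sin-3*. Under it the median of the 80 genes was -0.39 in *set-2*, with 50 called lower. Over all genes tested, 446 were then called lower in *set-2*, against 812 under TMM scaling. The median of the 80 genes was 0.037 between *cfp-1* and *set-2* (5 called higher, or 6.25%, where 9.52% of all genes were). It was 0.31 between *set-2* and *sin-3* (37 called higher), with 35 called higher between *cfp-1* and *sin-3*. The share of all calls that were higher went from 51.2% to 73.2% in *set-2* against wild-type, 57.0% to 43.0% for *cfp-1* over *set-2*, 53.9% to 65.4% for *cfp-1* over *sin-3* and 48.97% to 65.5% for *set-2* over *sin-3*. Between *cfp-1* and *set-2*, DESeq2 called 15 higher, no filter gave 5, and the fit of these strains alone gave 3 higher and 0 lower.

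The replicate number as a block gave 52, 66 and 76 genes lower in *cfp-1*, then *set-2*, then *sin-3*, with medians of -0.38, -0.52 and -0.71, and kept 78 of 81 named calls. Over all genes tested, 1303, 835 and 1543 were called lower with this block. Correlations of deviations ran from -0.45 to 0.47 over 15 same-numbered sample pairs, and from -0.41 to 0.35 over 6 pairs sharing a number in the title. The labels do not say that either number marks a shared batch. Deviations from the mean of so few libraries depend on each other within a strain, so these correlations cannot decide whether samples are paired. The title number as a block left 2 residual degrees of freedom, and 0 of the 80 genes were called higher or lower in any comparison. Of all genes tested, this block left 7, 25 and 0 called in *cfp-1*, then *set-2*, then *sin-3* against wild-type.

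The embryo age score as a covariate left 0 genes called higher or lower in *cfp-1* (median -0.28), 0 lower in *sin-3* (median -0.49), 0 higher or lower between *cfp-1* and *set-2* (median 0.27), 9 higher between *cfp-1* and *sin-3*, and 0 higher between *set-2* and *sin-3*, whose median turned to -0.062. *rpl-41.2* in *sin-3* turned to 0.11. It kept 23 of 81 named calls. The cause was not tested.

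Leaving out each of the 11 libraries in turn gave 28 to 58 genes lower and 0 to 1 higher in *cfp-1* (median -0.42 to -0.34), 44 to 67 lower in *set-2* (median -0.56 to -0.46, 44 without *set-2* replicate 1) and 48 to 77 lower in *sin-3* (median -0.73 to -0.64). Between *cfp-1* and *set-2* it gave 2 to 11 higher and 0 to 2 lower (median 0.09 to 0.18), between *cfp-1* and *sin-3* 0 to 29 higher (median 0.24 to 0.31) and between *set-2* and *sin-3* 1 to 16 higher (median 0.12 to 0.19). Calls over all genes tested moved in these refits as well. Without the 5 genes with the most counts, the shares were 2.66%, 2.15%, 2.05% and 1.61% in wild-type, then *cfp-1*, *set-2* and lastly *sin-3*. Depth limits only *rpl-42*, at 0 to 3 counts per library.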

Other observations

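Within each of the 4 strains, the library with the lowest ratio of *rpl-11.1* to *rpl-11.2* per kilobase was also the library with the lowest ratio of *rpl-25.2* to *rpl-25.1*. This was wild-type replicate 1 (0.708 and 2.36), *cfp-1* replicate 2 (1.08 and 3.64), *set-2* replicate 2 (0.488 and 1.97) and *sin-3* replicate 2 (0.678 and 1.93). In both ratios the lower term is a gene on chromosome X. The pattern was noticed after the values were seen and was not tested.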
